A study of Mus musculus with 6 samples.

Results

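The 10 Polycomb group genes examined here were Ezh1, Ezh2, Eed and Suz12 of Polycomb repressive complex PRC2, Bmi1, Ring1, Rnf2, Cbx7 and Cbx8 of PRC1, and Scml2, which encodes a PRC1-associated protein. They were taken by name from a table of 55357 gene identifiers, and each matched 1 identifier. The study compared LT-HSCs, the long-term blood stem cells at the top of the haematopoietic hierarchy, from 3 Dcaf8 knockout mice with those from 3 wild-type mice, all described as young. The Dcaf8 protein selects substrates for ubiquitin ligases built on CUL4 and DDB1. Cells were sorted from bone marrow as Lin-Sca-1+c-Kit+CD150+CD48-, and each of the 6 RNA-seq libraries was amplified as full-length mRNA from 50 cells. The sources used here do not give the allele, the strain, the age in weeks or whether the deletion was confined to blood cells.

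Polycomb proteins keep developmental and lineage genes silent through chromatin. PRC2 methylates a lysine of histone H3 with EZH1 or EZH2 as its catalytic subunit, on a scaffold of EED and SUZ12. PRC1 ubiquitinates histone H2A with RING1 or RNF2 (RING1B), each paired with a PCGF protein such as BMI1, and its canonical forms bind the methyl mark through a CBX protein. In blood stem cells this system is known for holding the Cdkn2a locus shut and for supporting self-renewal, with Bmi1 as the classical example.

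Total counts ranged from 14461864 to 22386387 per library. Dcaf8 itself stood at 290, 292 and 203 TMM-normalised CPM (read counts divided by the library total and scaled by TMM factors, the unit of all levels below unless stated) in wild-type replicates 1 to 3, against 74.1, 38.04 and 45.1 in the 3 knockout libraries. Its log2 fold change of -2.28 ± 0.28 (SE) had an adjusted p of 0.739 by edgeR and of 1.89e-09 by DESeq2. The unadjusted p of Dcaf8 by edgeR was 5.36e-05, the smallest of all genes tested, and no gene had an edgeR adjusted p under 0.739. All 12 HSC markers examined were counted in all 6 libraries, and their summed level was 2602 to 2997 CPM of the total for wild-type mice and 2458 to 3059 for knockout mice. Of the gate-negative genes, Cd48 reached 34.4 CPM in knockout replicate 2 and Ly6g 26.6 CPM in wild-type replicate 2. Some libraries stood apart in other ways. Neutrophil markers summed to 6217 CPM in wild-type replicate 2 against 6.79 to 29.5 CPM in the other 5. Wild-type replicate 3 had the fewest detected genes, 15244 against 16183 to 17015. Knockout replicate 3 was female by its counts, with Xist at 50.7 CPM and 4 Y-linked genes at 0 to 0.181 CPM, while Xist was at most 1.24 CPM in the other 5 libraries.

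None of the 10 members passed the quasi-likelihood test of edgeR, adjusted by Benjamini-Hochberg over the 14592 genes tested, and 0 genes passed in all (0.0%). Dcaf8, the targeted gene, did not pass by edgeR either, so failing this test does not show that a member was unchanged. DESeq2 called 0 of the 10 and limma-voom 0 of the 10, against 153 genes (0.902% of those given an adjusted p) and 0 genes over the whole table. At an unadjusted p under 0.05, edgeR had 1 of the 10, Scml2, against 5.82% of all genes tested (5.68% by DESeq2 and 5.31% by limma-voom). In 3 of 10 members the libraries of the 2 genotypes did not overlap: Scml2 and Eed were lower and Cbx8 higher in every knockout library. Over all genes tested the groups did not overlap in 10.3%, with knockout higher in 5.91% and lower in 4.43%. With 10 genes, 30.0% is a count of 3, and no test was made of it.

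Most of the members had many CpG dinucleotides just upstream of the annotated start, a feature that the choice of genes did not use and that in mammals marks many broadly used promoters. RefSeq (GRCm38.p6) gave a window for each of the 10, and in 7 of them (Bmi1, Cbx8, Eed, Ezh1, Ring1, Rnf2 and Suz12) the window directly joins the outer end of the gene's annotated span. These 7 held 12 to 37 CpG dinucleotides in the 250 bases before the start, with 54.4 to 73.6% G and C. Across all 32851 windows in the table the median was 6 CpG and 52.4% G and C, and 33.5% of windows held at least 12 CpG. Unlike the 7, these windows were limited neither to the end of a gene's span nor to protein-coding genes, so the 2 sets are not matched. The windows of Eed and Cbx8, whose libraries did not overlap between genotypes, and of Suz12, the most CpG-rich, are shown 5′ to 3′ along the gene with CpG dinucleotides in capitals. That of Eed, on the minus strand at chr7:89980977-89981226, held 12. Cbx8, on the minus strand at chr11:119040914-119041163, had 22, and Suz12, on the plus strand at chr11:79992856-79993105, had 37.
Eed: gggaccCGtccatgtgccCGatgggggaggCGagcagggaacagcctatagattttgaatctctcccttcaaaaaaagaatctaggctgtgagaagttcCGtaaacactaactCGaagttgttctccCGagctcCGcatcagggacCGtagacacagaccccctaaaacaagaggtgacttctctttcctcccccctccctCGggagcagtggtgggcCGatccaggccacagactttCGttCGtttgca
Cbx8: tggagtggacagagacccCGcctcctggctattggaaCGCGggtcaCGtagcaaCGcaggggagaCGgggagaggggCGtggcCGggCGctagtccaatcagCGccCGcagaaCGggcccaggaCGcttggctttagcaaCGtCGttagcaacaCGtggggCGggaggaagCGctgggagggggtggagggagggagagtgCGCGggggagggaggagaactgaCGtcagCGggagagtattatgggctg
Suz12: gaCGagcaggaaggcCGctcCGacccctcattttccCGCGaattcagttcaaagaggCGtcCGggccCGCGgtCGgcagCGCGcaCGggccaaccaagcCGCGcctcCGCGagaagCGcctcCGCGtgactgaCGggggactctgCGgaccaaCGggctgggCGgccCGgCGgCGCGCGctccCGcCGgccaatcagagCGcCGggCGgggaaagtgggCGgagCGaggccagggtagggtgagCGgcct
The window of Scml2 starts well inside the annotated span of its gene, so its sequence is not shown; it held 7 CpG, near the median of all windows. Those of Cbx7 and Ezh2, also not at the end of the annotated span, held 23 each. E2F-type motifs (TTTGGCGC, TTTCCCGC, TTTCGCGC or TTTGCCGC on either strand, which share letters with one another) occurred in 1 of the 10 windows, that of Suz12, 219 bases before the start, and in 1.86% of all windows. A match of letters is a description of the sequence and shows no binding.

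Levels of different genes were compared per kilobase of exon, since amplification was of full-length mRNA and longer transcripts give more reads. Exon lengths came from GENCODE gene models of GRCm38, another build than that of the counts (mm39). They merge all annotated exons of a gene and can exceed the length of any single transcript. The order and the shares of genes therefore depend on that annotation. Averaged over all 6 libraries, Rnf2 was the highest at 52.2 CPM per kb (range 40.6 to 77.7), followed by Eed at 43.4 (26.6 to 57.8). Rnf2 exceeded Eed in 6 of 6 libraries, but narrowly in some: 44.3 against 43.3 in knockout replicate 2 and 40.6 against 40.3 in knockout replicate 3. A small change in exon length would reverse such cases. Eed in turn exceeded Ezh2, at 13.4 CPM per kb (10.2 to 16.7), in 6 of 6 libraries. Bmi1 (8.67), Cbx7 (8.36) and Ezh1 (7.83 CPM per kb) followed with ranges that overlapped, and their order differed from library to library. Ring1 (5.48), Suz12 (4.73), Cbx8 (2.73) and Scml2 (1.997 CPM per kb) had the lowest means, though Ezh1 exceeded Ring1 in only 3 of 6 libraries. Cbx8 lay above Scml2 in 3 of 6 libraries, which were the 3 knockout libraries. Rnf2 shares exon sequence with Trmt1l and Cbx7 with Apobec3 on the opposite strand in that annotation. It is not known whether counting used strand, so reads from the shared sequence of these pairs cannot be told apart. The same holds for Ezh2 and Suz12, each with an unnamed gene model, and for Dcaf8 with Pea15a. Genes of the other lists have such overlaps too, among them Asxl2 and Igf2bp3.

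Within families of related genes, the same per-kilobase levels show which paralogue made up most of the RNA. The products of a family need not take the same place in the complexes, and the PCGF proteins belong to different forms of PRC1. Rnf2 accounted for 92.1 ± 1.22% of the Ring1 and Rnf2 sum for wild-type mice and 89.2 ± 5.08% for knockout mice (SD, 3 libraries each). Ezh2 accounted for 62.4 ± 8.94% and 64.5 ± 16.6% of the Ezh1 and Ezh2 sum, and it exceeded Ezh1 in every library. Among the 6 PCGF genes no single one dominated per kilobase: Bmi1 took 45.6, 19.5 and 8.02% in wild-type replicates 1 to 3 and 22.7, 14.7 and 12.3% in the knockout ones, alongside Pcgf1, Pcgf5 and Pcgf6. Before division by length the levels were less even, with wild-type means of 121 CPM for Pcgf5 (12.629 kb of exon) and 16.9 CPM for Pcgf1 (1.649 kb). Scml2 took 43.3, 28.6 and 23.4% of the Scmh1, Scml2 and Scml4 sum in the wild-type libraries but 10.8, 10.04 and 0% in the knockout ones.

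**Figure D1:**
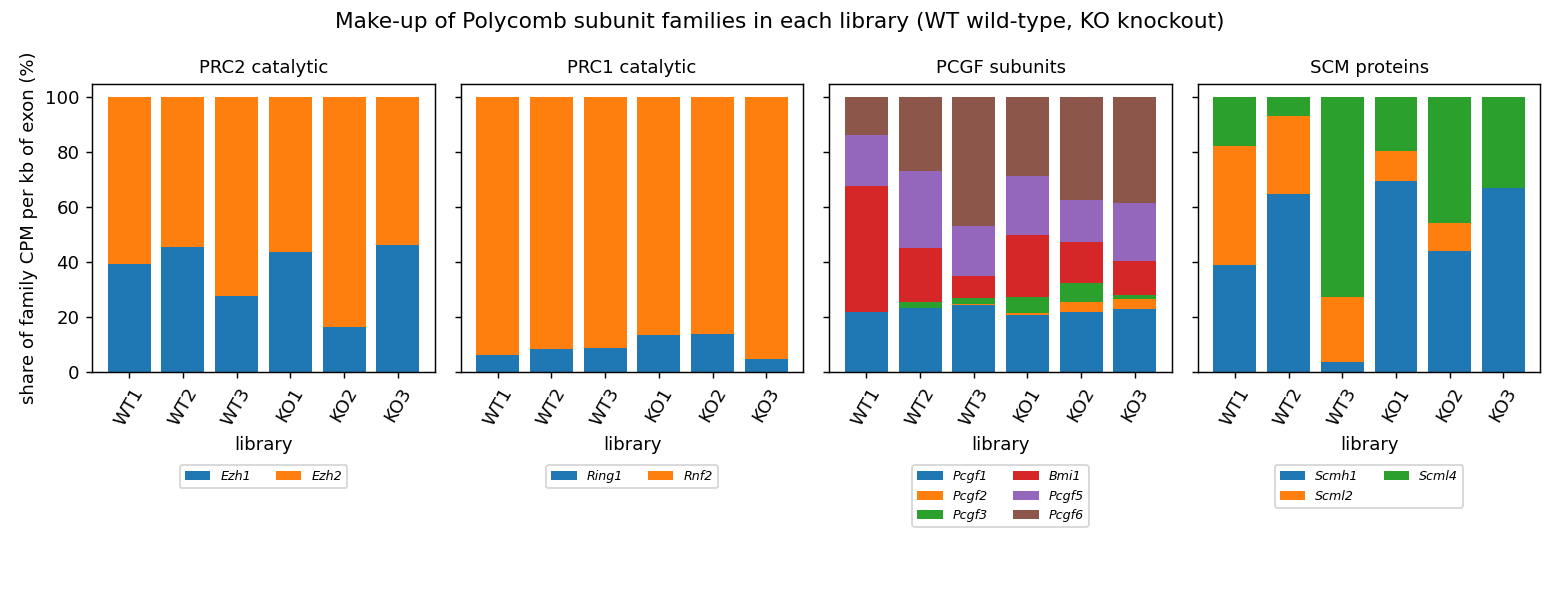
Stacked bars give, for each of the 6 libraries (x axis; WT wild-type, KO knockout, with the replicate number), the share of each gene in the summed TMM-normalised CPM per kb of exon of its family (y axis, %). Rnf2 takes at least 86.0% of its pair in every library, and the Scml2 share is at most 10.8% in the knockout libraries but at least 23.4% in the others.

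Within PRC2, the catalytic subunit gene Ezh2, which is linked to dividing cells, had nearly the same mean in both genotypes. It stood at 99.1, 73.7 and 95.2 CPM in wild-type replicates 1 to 3, beside 68.2, 112 and 87.6 CPM in the knockout replicates in the same order, which all later sets of 3 values follow. The groups overlapped, with the highest and the lowest library both knockout. The means were 89.4 ± 13.7 and 89.2 ± 21.7 CPM (SD, n = 3 per group), with a log2 fold change of -0.03 ± 0.25 (SE) and a 95% interval on the fold of 0.653 to 1.48. Summed levels of 22 proliferation genes also overlapped between genotypes, at 3956 to 5017 CPM (wild-type) and 3970 to 5803 CPM (knockout). Knockout replicate 2 was highest and knockout replicate 1 next to lowest in that sum; their part in the Ezh2 values was not tested. The sum does not show its single genes. Of the 22, 2 were higher in every knockout library, Cdk1 and E2f1, named after their values were seen, and 0 were lower. Over all genes tested the shares were 5.91% higher and 4.43% lower, and nothing is read from the 2. E2f1, which encodes a cell cycle transcription factor, stood at 55.8, 87.6 and 84.6 CPM of the total (wild-type) and at 108, 140 and 139 (knockout). Cdk1, the mitotic kinase gene, stood at 88.9, 62.5 and 66.4 against 107, 143 and 113 CPM.

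Ezh1, the catalytic subunit that is kept in quiescent cells, varied more. Its levels were 72.2, 68.6 and 41.1 CPM for wild-type mice and 59.3, 24.3 and 84.0 CPM for knockout mice. The lowest and the highest values were again both knockout, replicates 2 and 3. The log2 fold change was -0.05 ± 0.43 (SE, adjusted p = 1.00 by edgeR), and the interval on the fold ran from 0.485 to 1.93.

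Eed, whose product binds the methyl mark and stimulates the enzyme, was the only PRC2 core gene whose groups did not overlap. Its levels were 171, 184 and 221 CPM for wild-type mice, compared with 102, 166 and 154 CPM for knockout mice. All knockout values were under all wild-type values, but knockout replicate 2 and wild-type replicate 1 were close, and knockout replicate 1 was the low one. The knockout mean was 73.3% of the wild-type mean (192 ± 26.2 and 141 ± 34.2 CPM, SD, n = 3 per group). The log2 fold change of -0.47 ± 0.22 (SE) did not pass (unadjusted p = 0.0707, adjusted p = 0.869 by edgeR), with an interval on the fold of 0.506 to 1.04, and it was -0.27 without knockout replicate 1. An antisense gene model, E230029C05Rik, shares exon sequence with Eed, so reads from the shared sequence could not be separated here. Suz12, the scaffold of PRC2, stood at 15.4, 20.6 and 35.0 CPM for wild-type mice and 22.8, 29.2 and 17.5 CPM for knockout mice. All 3 knockout values lay inside the wild-type range (log2 fold change -0.08 ± 0.44, SE).

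In PRC1, the main catalytic gene Rnf2 stood at 194, 210.0 and 321 CPM for wild-type mice and 217, 183 and 167 CPM for knockout mice. Only wild-type replicate 3 was clearly apart, on the high side. The log2 fold change of -0.36 ± 0.23 (SE, adjusted p = 0.922 by edgeR) was -0.10 without that library. Its paralogue Ring1 stood at 10.6, 15.2 and 24.1 CPM for wild-type mice and 26.4, 23.5 and 6.86 CPM for knockout mice. The knockout libraries held both the highest and the lowest Ring1 value, and the log2 fold change was 0.14 ± 0.59 (SE).

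Bmi1, the PCGF protein gene needed for self-renewal of adult blood stem cells, had the widest wild-type spread in CPM relative to its mean after Cbx8. Its levels were 84.2, 32.7 and 14.1 CPM for wild-type mice, compared with 33.0, 25.1 and 17.6 CPM for knockout mice. All knockout values lay inside the wild-type range, and wild-type replicate 1 stood far above the other 5 libraries. The wild-type mean of 43.7 ± 36.3 CPM against 25.3 ± 7.70 in knockout (SD, n = 3 per group) rested on wild-type replicate 1: the log2 fold change was -0.75 ± 0.65 (SE, adjusted p = 0.963 by edgeR) with all libraries and 0.10 without it. That library was also the highest of the 6 in 5 of the 22 proliferation genes. Among them was Top2a, a DNA topoisomerase gene of dividing cells, at 412 CPM of the total against 56.4 to 223 in the other 5. In further genes of that list it was the lowest of the 6. Among these were E2f1, at 55.8 CPM of the total against 84.6 to 140, and Ccne1, at 0 against 14.1 to 42.3. The part of the proliferation genes in the Bmi1 values was not tested.

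Of the CBX readers, Cbx7, known for promoting self-renewal in blood stem cells, stood at 64.0, 36.9 and 35.6 CPM for wild-type mice and 76.4, 83.2 and 29.3 CPM for knockout mice. Knockout replicates 1 and 2 were the highest and knockout replicate 3 the lowest of all 6. The log2 fold change was 0.45 ± 0.45 (SE, adjusted p = 0.967 by edgeR). Cbx8, a reader linked in blood cells more to differentiation, stood at 7.13, 9.08 and 0 CPM for wild-type mice and 17.1, 15.2 and 11.7 CPM for knockout mice. All knockout values were above all wild-type values. Counts were 127, 188 and 0 for wild-type mice and 392, 219 and 259 for knockout mice. The 0 of wild-type replicate 3, the library with the fewest detected genes, allows up to 0.15 CPM by counting error alone (3 counts). The log2 fold change of 1.44 ± 0.71 (SE) did not pass (unadjusted p = 0.0810, adjusted p = 0.874 by edgeR), and without that library it was 0.84.

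Scml2, which lies on chromosome X and encodes a protein best known for work with PRC1 in the germ line, showed the largest difference of the 10 genes. Its levels were 28.4, 21.9 and 10.8 CPM for wild-type mice, compared with 6.21, 5.55 and 0 CPM for knockout mice. Counts were 505, 453 and 214 for wild-type mice and 142, 80 and 0 for knockout mice. Again no knockout value reached a wild-type one, and the knockout mean was 19.3% of the wild-type mean (20.4 ± 8.86 and 3.92 ± 3.41 CPM, SD, n = 3 per group). The log2 fold change was -2.43 ± 0.77 (SE) and the 95% interval on the fold ran from 0.055 to 0.627, the only member interval that did not reach 1. Its unadjusted p of 0.0126 became 0.747 after adjustment over all genes by edgeR, and DESeq2 gave an adjusted p of 0.806. The knockout library at 0 is the female one, where a count of 0 allows up to 0.135 CPM. Without that library the log2 fold change was -1.76 (adjusted p = 0.935 by edgeR), and the other 2 knockout libraries, which like all wild-type libraries had Y-linked counts, were still below every wild-type library. In such pooled libraries, fewer cells with Scml2 RNA and less of it per cell cannot be told apart.

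**Figure D2:**
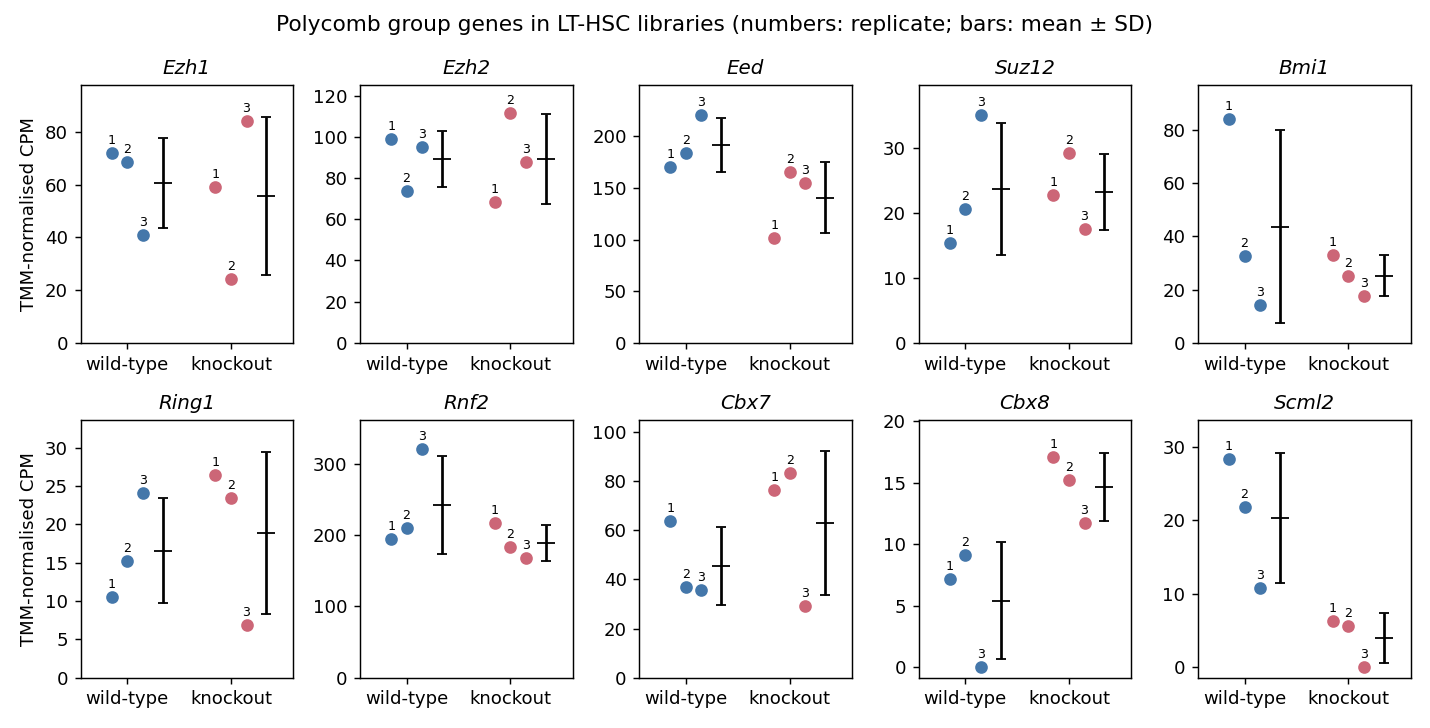
Each panel gives 1 gene in TMM-normalised CPM (y axis, linear) for the 3 wild-type (blue) and 3 knockout (red) libraries; numbers are replicates and the bars give mean ± SD. Only Eed, Cbx8 and Scml2 have no overlap between genotypes, and Scml2 is at 28.4, 21.9 and 10.8 CPM in wild-type against 6.21, 5.55 and 0 in knockout libraries.

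The spread between libraries set how closely each gene could be compared. For 7 of the 10 members the SD exceeded 40% of the mean in at least 1 genotype. The 95% intervals of 3 members (Ezh2, Eed and Rnf2) lay within 2-fold either way, so that a larger change of these fell outside the interval, while those of the other 7 reached beyond 2-fold in at least 1 direction. Over the 6 fits that each left out 1 library, Eed, Rnf2, Cbx7, Cbx8 and Scml2 kept their direction, while Ezh1, Ezh2, Suz12, Bmi1 and Ring1 changed sign in at least 1. The median log2 fold change of the 10 was -0.07, with 7 below 0, against a median of 0.01 and 49.1% below 0 over all genes tested.

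**Figure D3:**
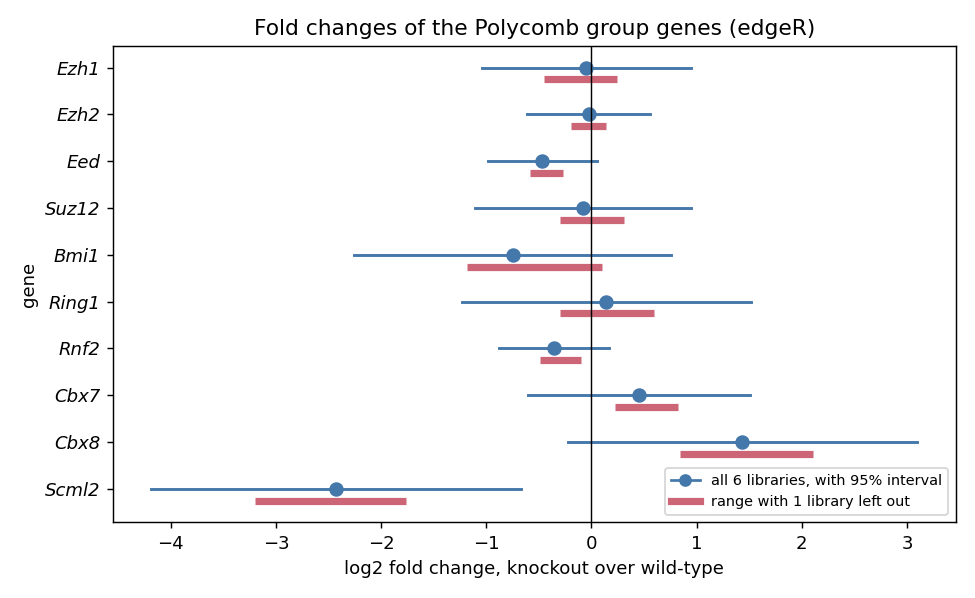
For each gene (y axis), a point gives the edgeR log2 fold change, knockout over wild-type (x axis), with its 95% interval as a blue line, and red bars give the range when 1 library was left out. The interval of Scml2 (-4.18 to -0.67) is the only one that does not include 0, and the red bars of 5 genes cross 0.

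Because paralogues can replace one another in the complexes, the ratio of 4 pairs was taken within each library, where library scaling cancels out. The log2 ratio of Ezh1 to Ezh2 counts was -0.46, -0.11 and -1.21 for wild-type mice, compared with -0.20, -2.20 and -0.06 for knockout mice. Knockout replicate 2 was the lowest, and without it the difference turned to 0.46; the groups overlapped (difference in means -0.23, two-sided exact permutation p = 0.9). For Ring1 to Rnf2 the means were -3.91 ± 0.25 and -3.53 ± 0.93 (exact permutation p = 0.6, SD, n = 3 per group). The Cbx7 to Cbx8 ratio was 5.21 ± 4.58 and 1.98 ± 0.58 in mean, a difference of -3.24 that was -0.61 without wild-type replicate 3 and -2.57 with 2 instead of 0.5 added to each count (exact permutation p = 0.3, n = 3 per group). In wild-type replicate 3 Cbx8 had 0 counts, so its ratio of 10.46 is set by the count added. Bmi1 to Pcgf2, a PCGF paralogue of Bmi1 that was nearly uncounted in wild-type (0.281, 0.0483 and 1.06 CPM), gave 6.87 ± 2.77 and 3.24 ± 1.97 (exact permutation p = 0.2, n = 3 per group). The difference of -3.63 became -5.21 when wild-type replicate 3 was dropped and -2.65 when wild-type replicate 2 was. No pair passed, the adjusted p over the 4 pairs ran from 0.6 to 0.9, and 3 against 3 animals cannot go below 0.1.

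Other Polycomb machinery was read from a list of 55 genes by complex, of which 51 were tested and 0 called in either direction. Their median log2 fold change was -0.05, with 27 below and 24 above 0. In 10 of the 51 (19.6%) the groups did not overlap, 8 lower (15.7%) and 2 higher (3.92%) in knockout, beside 4.43% and 5.91% of all genes tested. At an unadjusted p under 0.05 there were 6 lower (11.8%) and 1 higher (1.96%), beside 2.35% and 3.47% of all genes. Without adjustment these shares are descriptions, and the list was written with earlier results of these data known.

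Among PRC2 partners the histone-binding subunit genes Rbbp4 (197 ± 54.2 CPM in wild-type, 231 ± 25.3 in knockout) and Rbbp7 (706 ± 64.1 and 636 ± 43.1 CPM) had overlapping groups (SD, 3 libraries each). So did Mtf2, a Polycomb-like protein gene that helps PRC2 to reach CpG islands, with means of 220 ± 39.5 and 209 ± 19.1 CPM. The other 2 Polycomb-like genes had log2 fold changes of opposite sign, and neither passed. Phf1 stood at 45.4, 19.8 and 18.7 CPM for wild-type mice and 12.9, 9.44 and 9.88 for knockout mice, with no overlap (log2 fold change -1.33 ± 0.53, SE, adjusted p = 0.841 by edgeR). It overlaps Cuta on the opposite strand. Phf19 stood at 15.4, 5.46 and 2.28 CPM for wild-type mice and 19.5, 19.8 and 9.39 for knockout mice, which overlapped (log2 fold change 1.09 ± 0.67, SE). Jarid2 (log2 fold change -0.30 ± 0.52) and Aebp2 (0.08 ± 0.63, SE), the cofactors of the other PRC2 form, overlapped, with knockout replicates holding both extremes. Epop, a further PRC2 cofactor named here after its values were seen, was higher in every knockout library (log2 fold change 1.42 ± 0.83, SE, adjusted p = 0.899 by edgeR). Its levels were low, at 3.54, 2.90 and 0 CPM for wild-type mice and 3.76, 6.525 and 7.04 for knockout mice. Wild-type replicate 1 and knockout replicate 1 were close, and the interval on the fold ran from 0.746 to 9.58. Ezhip, an inhibitor of PRC2, had 0 counts in all 6 libraries.

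Of the other PCGF genes, Pcgf1 (16.7, 16.4 and 17.8 against 12.7, 15.6 and 13.8 CPM) and Pcgf5 (110, 151 and 101 against 98.9, 82.5 and 95.7 CPM), both of variant PRC1, were lower in every knockout than in every wild-type library. Both differences were small, with log2 fold changes of -0.30 ± 0.39 and -0.38 ± 0.22 (SE). Pcgf6 (64.3 ± 37.2 and 67.7 ± 14.3 CPM, SD, n = 3 per group) and Pcgf3 (log2 fold change 1.52 ± 0.82, SE) overlapped between genotypes. Pcgf2 had the largest positive log2 fold change of the 51 genes, 2.78 ± 1.20 (SE, unadjusted p = 0.0452, adjusted p = 0.850 by edgeR), with at most 1.06 CPM in a wild-type library and with 0.699, 5.42 and 4.38 CPM in the knockout ones, which overlapped. Cbx2, another CBX reader gene, was nearly uncounted in wild-type replicate 3, at 0.0506 CPM, as in knockout replicate 3, at 0.0451 CPM. Cbx6 and the polyhomeotic genes Phc1, Phc2 and Phc3, whose products polymerise canonical PRC1, overlapped between genotypes, with log2 fold changes of 0.24, -0.05, 1.21 and 0.40.

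In variant PRC1, Rybp, whose product stimulates ubiquitination by RNF2, stood at 4.55, 5.31 and 4.76 CPM for wild-type mice and 1.66, 2.99 and 1.04 for knockout mice, with no overlap (log2 fold change -1.48 ± 0.58, SE, adjusted p = 0.824 by edgeR). Its more abundant paralogue Yaf2 overlapped, with means of 159 ± 54.9 and 120 ± 21.5 CPM (SD). Kdm2b and Bcor, the CpG-binding and scaffold subunits of the PCGF1 form, had log2 fold changes of 0.37 ± 0.42 and 0.53 ± 0.59 (SE) and overlapped. Bcorl1, a homologue of Bcor, and Fbrs were lower and Wdr5 was slightly higher (log2 fold change 0.28 ± 0.18, SE) in every knockout library; these 3 are named after their values were seen. Bcorl1 stood at 12.0, 3.48 and 11.1 CPM against 2.14, 0.555 and 0.632, with the smallest p of the list (unadjusted p = 0.00392, adjusted p = 0.739 by edgeR). That adjusted p was the lowest that edgeR gave any gene tested, and DESeq2 gave Bcorl1 an adjusted p of 0.117. Fbrs stood at 9.44, 23.0 and 20.3 CPM against 7.65, 8.12 and 4.24.

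Of the opposing enzymes, the H2A deubiquitinase gene Bap1 had close means and overlapping groups (133 ± 57.6 and 136 ± 35.6 CPM, SD). Its partner Asxl1 overlapped (log2 fold change 0.26 ± 0.62, SE), while Asxl2 stood at 51.3, 44.1 and 43.1 CPM for wild-type mice and 21.3, 22.3 and 35.7 for knockout mice, with no overlap (log2 fold change -0.78 ± 0.33, SE, adjusted p = 0.851 by edgeR). Kdm6a, the X-linked demethylase that removes the PRC2 mark, stood at 44.5, 45.7 and 77.1 CPM for wild-type mice and 33.1, 9.44 and 27.2 for knockout mice, also with no overlap (log2 fold change -1.17 ± 0.44, SE, adjusted p = 0.837 by edgeR). Kdm6b overlapped, with means of 25.2 ± 9.99 and 15.8 ± 4.54 CPM (SD). Of the 8 X-linked genes among members and list, 7 were tested, and 3 (Scml2, Bcorl1 and Kdm6a) were lower in every knockout library. Of all 460 X-linked genes tested, 4.13% were, beside the 4.43% of all genes tested, and nothing is read from the 3 being X-linked. Without the female library the 3 genes' log2 fold changes were -1.76, -2.50 and -1.27.

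**Figure D4:**
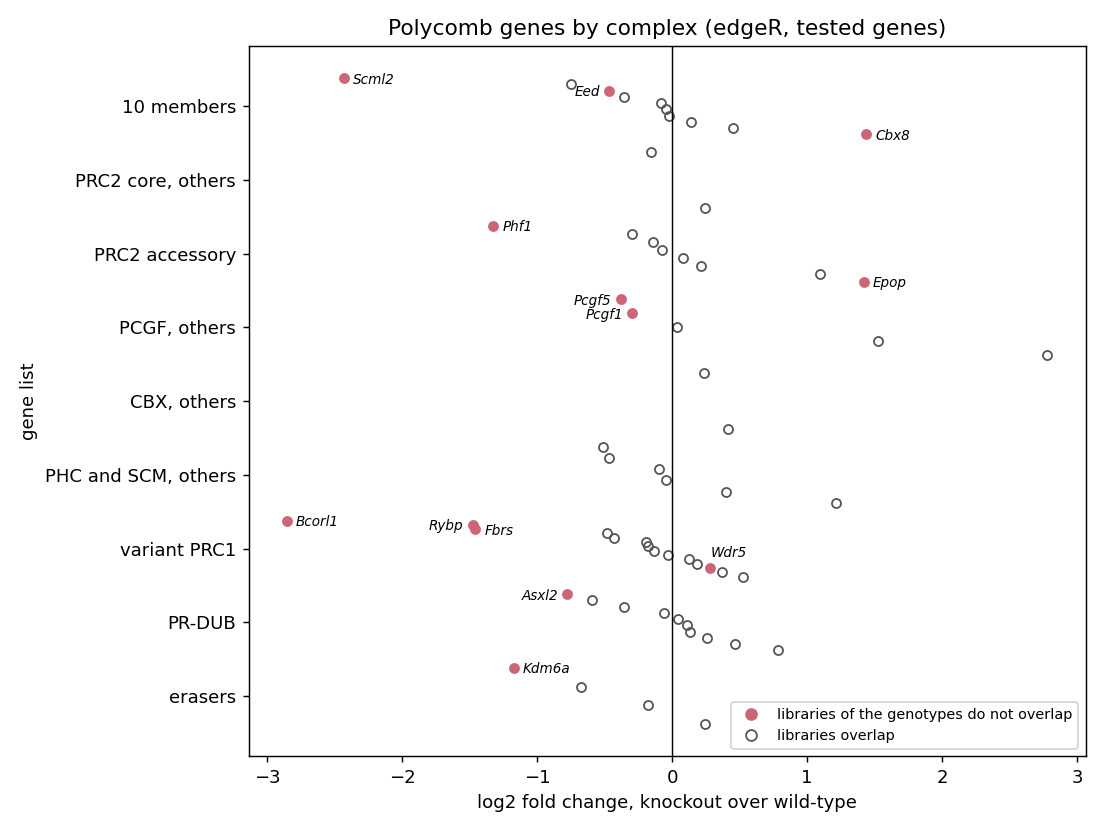
Circles give edgeR log2 fold changes (x axis, knockout over wild-type) of the 10 members and of the 51 tested genes of the wider list, by complex (y axis; PR-DUB is the H2A deubiquitinase complex, erasers are other enzymes that remove the histone marks). Filled, named circles mark genes whose genotypes do not overlap, 3 of 10 members and 10 of 51 others, and none passed after adjustment over all genes.

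A list of 22 protein-coding loci known as Polycomb targets was mostly uncounted in both genotypes. Of these, 17 (77.3%) had 0 counts in all 6 libraries, beside 35.9% of all 21876 protein-coding genes and 61.8% of all identifiers, and nothing is read from that share. Among them were Cdkn2a, the cell cycle inhibitor locus controlled by Bmi1, and the B-cell factor genes Ebf1 and Pax5. A count of 0 allows a level of up to 0.134 to 0.207 CPM, depending on the library. Cdkn2b was counted in wild-type replicate 2 alone, at 0.338 CPM. Of the 22, 3 were tested, all genes of the fetal stem cell programme. Hmga2 averaged 25.8 ± 5.71 CPM for wild-type mice and 31.8 ± 5.79 for knockout mice (SD, log2 fold change 0.32 ± 0.35, SE). Lin28b stood at 5.50, 1.84 and 0 CPM for wild-type mice and 20.3, 3.19 and 2.93 for knockout mice, which overlapped, with knockout replicate 1 high (log2 fold change 2.04 ± 1.12, SE). That value was 0.37 without knockout replicate 1 and 3.34 without wild-type replicate 1. Igf2bp3 stood at 6.01, 11.01 and 6.43 CPM for wild-type mice and 0, 6.73 and 0 for knockout mice, and knockout replicate 2 lay within the wild-type range (log2 fold change -2.27 ± 1.26, SE). It was -1.57 without knockout replicate 1, and no fold is given without knockout replicate 2, since the remaining knockout libraries were both at 0. Neither passed (adjusted p = 0.883 for both by edgeR).

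Finally, the genes whose pattern over the 6 libraries was most like that of a member were listed, out of 7829 with a mean of at least 20 CPM. The measure was the root mean square difference of log2 CPM after centring each gene on its mean. For Ezh2, whose own deviation was 0.24, they were Pmpcb (0.09), Orc6 (0.10) and Klhl6 (0.10). For Ezh1, with a deviation of 0.60, they were Zfp715 (0.13), Flvcr1 (0.16) and Rdh13 (0.19). Bmi1 (0.82) was most like Fam208a (0.17), Atad2b (0.26) and Zmym4 (0.27), and Cbx7 (0.59) most like Smpd2 (0.06), Lair1 (0.12) and Socs3 (0.16). Each likeness is over 6 libraries of 2 genotypes and is given as a description.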

How the data were processed

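Each of the 6 RNA-seq libraries came from 50 sorted LT-HSCs, with 3 mice per genotype, and groups and replicate numbers came from the labels. The authors deposited raw read counts per Ensembl gene, 1 column per library and no pooling. Trimmomatic 0.39, HISAT2 2.2.1, Picard 2.26.1, HTSeq 1.99.2, DESeq2 1.38.3 and build mm39 appear, with no role stated, per the submitters' processing notes; the sources used here give neither annotation release nor strand setting. Reads were amplified without molecular identifiers, so floors of 3 counts reflect counting error only.

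Of the identifiers 94.1% matched a symbol. Of 177 entries in the gene lists, 175 matched directly and 2 through a RefSeq synonym. Members and lists were chosen with earlier results of these data known. The genes named were the 10 members, listed genes picked by role and Dcaf8 (1 such gene is not reported here); Epop, Wdr5, Bcorl1 and Fbrs appear because their libraries did not overlap. The pattern search named 3 genes each for Ezh1, Ezh2, Bmi1 and Cbx7, without unnamed gene models.

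The test was edgeR 4.0.16 in R 4.3.3: default filterByExpr (minimum count 10, minimum total 15), TMM, robust quasi-likelihood fit (legacy off) with genotype as the only term, Benjamini-Hochberg over all genes, threshold 0.05. Standard errors and 95% intervals came from the F statistic. All 10 members passed the filter. Printed CPM are counts over total count times TMM factor; marker sums are CPM of the total count. Log2 CPM in the pattern search used a prior count of 2, and count ratios had 0.5 added. Ratios were compared over the 20 assignments of libraries. Alternatives were DESeq2 1.42.0, limma-voom (limma 3.58.1) with sample weights, the legacy fit, scaling by RLE or upper quartile, a filter of 5 CPM in 3 libraries or none, a replicate block, each library left out, and 2 added to counts in ratios; DESeq2 without the female library was added after seeing the data. The fits were tested on simulated data.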

Additional observations from a re-analysis of the deposited data

How the results depend on the processing

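No member passed the threshold under any of 15 alternative fits, in which the lowest adjusted p was 0.219, for Scml2 by DESeq2 without the female library. Of 150 alternative fold changes of the members, 136 kept their direction. Eed, Rnf2, Cbx7, Cbx8 and Scml2 kept it in all 15, with ranges of -0.59 to -0.27, -0.49 to -0.10, 0.22 to 0.82, 0.84 to 2.75 and -4.12 to -1.76. The direction turned for Ezh2 (0.048) and Suz12 (0.13) with limma-voom and for Suz12 with DESeq2 without the female library (0.12). With 1 library left out the log2 fold changes ran from -0.45 to 0.24 for Ezh1, -0.19 to 0.14 for Ezh2, -0.30 to 0.31 for Suz12, -1.18 to 0.10 for Bmi1 and -0.30 to 0.59 for Ring1. The Ezh1 to Ezh2 ratio difference ran from -0.61 to 0.46, without knockout replicate 3 and knockout replicate 2. The median of the wider list, -0.048, ran from -0.086 to 0.033 with 1 library left out, turning when wild-type replicate 1 (0.002) or knockout replicate 2 (0.033) was dropped. DESeq2 called 153 genes, and 288 without the female library, where it called 1 gene of the wider list, Asxl2 (log2 fold change -1.09, adjusted p = 0.0057); edgeR called 0, with 849 at an unadjusted p under 0.05, and limma-voom 0, with 775. The cause was not tested.

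The replicate numbers pair no animals by the labels, and deviations of same-numbered libraries correlated at 0.06, -0.04 and 0.01. With the replicate block 0 genes were called, and the Scml2 log2 fold change was -2.44. For the Ezh1 to Ezh2 ratio an exact sign permutation over the 3 pairs gave p = 1.0, against 0.9 unpaired, and such a test cannot go below 0.25.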
